A study of Sus scrofa with 4 samples.

Results

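Genes that write, erase and read histone acetylation were examined in RNA of porcine fetal fibroblasts. The set was named by symbol and holds 39 genes in 4 roles, writers, erasers, readers and scaffolds; 38 of them have a row among the 35670 genes listed, and all 38 were tested among 14617 genes. They are 12 writers, 17 erasers, 6 bromodomain readers and 3 scaffolds of deacetylase complexes. KAT6A, a writer of the same set, was not analysed here. The cells are skin fibroblasts labelled wild type, which serve as controls, or labelled as over-expressing BRG1, and both groups were starved of serum. BRG1, encoded by SMARCA4, is an ATPase of the BAF chromatin remodelling complex. Each of the 2 groups has 2 libraries. Sample titles in both groups include pTK-642, a name that is left unexplained, and whether the controls hold a vector is therefore unknown. Nothing states that libraries of 1 group are separate cultures, and the p-values rest on a spread that may be technical. The age of the fetuses, the number of animals, and the promoter and species of the BRG1 sequence are not stated. The design text asks how extra BRG1 alters chromatin marks and openness of donor cells, and then the development of cloned embryos.

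Histone acetyltransferases move an acetyl group from acetyl-CoA to lysines of histone tails, a mark found at active promoters and enhancers. Deacetylases remove it, zinc-dependent ones (HDACs) mostly inside corepressor complexes built on scaffolds such as SIN3 and CoREST, and sirtuins by using NAD+. Bromodomains are folds that bind acetylated lysine, and their carriers bring further enzymes and the transcription machinery to acetylated chromatin. In somatic cell nuclear transfer, donor chromatin has to be reset by the egg, and inhibitors of deacetylases are widely used on cloned embryos.

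Gene counts summed to between 34486400 and 38126860 per library. The share of listed reads assigned to no feature was 6.11% in control 1, 7.34% in control 2, and 10.3% and 10.5% in libraries 1 and 2 labelled BRG1. Whether reads inside introns are among them is unknown, since the read counter is not stated. SMARCA4 stood at 154 and 179 CPM (read counts scaled to library size and TMM factors) in controls 1 and 2 and at 159 and 163 in libraries 1 and 2 labelled BRG1. Its log2 fold change was -0.044 ± 0.11 (SE, adjusted p = 0.765). The label could therefore not be checked by this gene, and directions are given for libraries as labelled. All 11 fibroblast markers with a row were detected. Their summed level, in which abundant genes weigh most, was 27958 and 32275 CPM in the controls and 48389 and 48757 in the libraries labelled BRG1. Of the 11, 7 rose and 0 fell, where 21.0% of all genes rose. COL3A1, PDGFRB, VIM and S100A4 did not pass, with log2 fold changes of -0.21, -0.22, -0.27 and -0.28. Markers of other cell types were low: the sums were 68.1 to 89.8 CPM for 11 epithelial genes, of which CLDN1 gave 76.0 on average and KRT5, KRT15, KRT1 and KRT8 were at 0, 5.48 to 9.27 for 8 endothelial genes (TEK at 0), 2.06 to 3.55 for 9 immune genes (PTPRC, CD3D and LYZ at 0) and 0.801 to 1.76 for 8 skeletal muscle genes (MYOD1, TNNT3 and PAX7 at 0). The sum for 8 melanocyte and Schwann cell genes was 8.74 and 9.16 in controls and 17.3 and 16.6 in the libraries labelled BRG1, with MITF the main part. The part of any of these in the results was not tested, and in bulk RNA fewer cells of a type and less RNA per cell cannot be told apart.

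Acetylation genes changed in both directions, at a share near that of all genes. Of the 38 tested, 6 rose and 9 fell at an adjusted p of 0.05 (edgeR quasi-likelihood test, Benjamini-Hochberg over all genes tested), which is 39.5% of the set against 44.6% of all genes tested, 21.0% higher and 23.6% lower. In 30 of the 38 the libraries of one group lay wholly above those of the other, against 73.2% of all genes. Changes were mostly small: only KAT2B, KAT6B and NCOA3 passed with a difference of at least 2-fold, all of them upward, against 14.9% of all genes in either direction. The median log2 fold change of the set was 0.078 and that of all genes 0.019. By role, 5 of 12 writers rose and 1 fell, 1 of 17 erasers rose and 6 fell, and 1 of 6 readers and 1 of 3 scaffolds fell with 0 rises in either. Of the 5 writers that rose, 3 are the p160 nuclear receptor coactivators NCOA1, NCOA2 and NCOA3, with weak acetyltransferase activity reported for some. The rest are KAT2B and KAT6B. Whether writers and erasers differ from each other was not tested. With scaling by library size alone, which moved the median of all genes to 0.24, the set held 19 rises and 3 falls, where 33.0% of all genes rose and 14.6% fell.

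**Figure D1:**
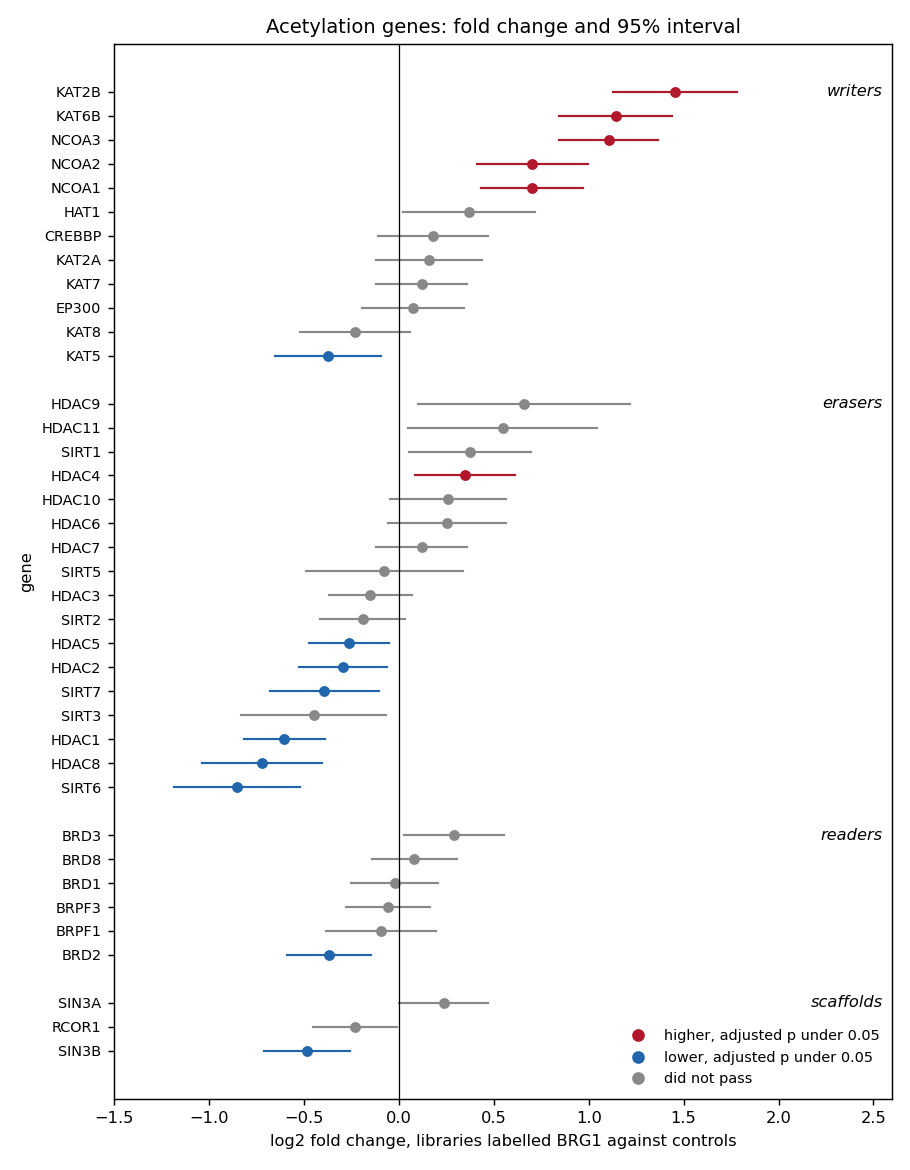
Log2 fold change (x axis) of each of the 38 acetylation genes (y axis, by role), libraries labelled BRG1 against controls; points are fitted values and lines their 95% intervals. The 5 writers that rose lie between 0.70 and 1.46, while the erasers that fell lie between -0.26 and -0.85.

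Among the writers, all 3 p160 nuclear receptor coactivators rose, where 21.0% of all genes rose. These proteins are recruited by ligand-bound nuclear receptors, have weak acetyltransferase activity reported for some of them, and bring in p300 and CBP. NCOA3 (SRC-3; Sscrofa11.1 chromosome 17, 49528275 to 49660471) stood at 42.9 and 56.0 CPM in controls 1 and 2 and at 107 and 105 in libraries 1 and 2 labelled BRG1. The groups did not overlap, and the log2 fold change was 1.10 ± 0.12 (adjusted p = 4.38e-06), or 2.15-fold. NCOA1 (SRC-1; chromosome 3, 113997214 to 114251080) was measured at 23.0 and 26.7 CPM in the controls and at 39.01 and 41.7 in the libraries labelled BRG1, a log2 fold change of 0.70 ± 0.13 (adjusted p = 0.000375). NCOA2 (SRC-2; chromosome 4, 64888029 to 65245757) gave 39.3 and 55.2 CPM against 74.2 and 79.4, or 0.70 ± 0.14 (adjusted p = 0.000731). For NCOA2 and NCOA3 the controls lay further apart than the libraries labelled BRG1, with control 1 the lower, but both controls stayed below. All 3 are long genes. In the deciles of gene span that hold them, 9 for NCOA3 and 10 for NCOA1 and NCOA2, 35.0% and 38.2% of genes rose. After removal of the trend with gene span in each library, NCOA1 and NCOA2 still passed, at 0.42 and 0.41.

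KAT2B and KAT6B rose most among the writers, and in each library labelled BRG1 they were well above both controls. KAT2B (PCAF, the catalytic subunit of SAGA and ATAC type complexes in which it alternates with KAT2A; chromosome 13, 6985151 to 7099771) went from 7.77 and 9.31 CPM in controls 1 and 2 (272 and 299 reads) to 22.8 and 24.0 (896 and 898 reads). Its log2 fold change of 1.46 ± 0.15 (adjusted p = 2.47e-06), or 2.74-fold, was the largest of the 38 genes, and it ranged from 1.26 to 1.68 over the alternatives run. Its paralog KAT2A (GCN5) stood at 22.4 and 23.2 CPM in controls and at 26.8 and 24.0 in the libraries labelled BRG1, a difference that did not pass (0.16 ± 0.13, adjusted p = 0.349; 95% interval -0.12 to 0.44). KAT6B (MORF, an acetyltransferase that targets histone H3; chromosome 14, 77390790 to 77597674) stood at 30.2 and 42.9 CPM in controls 1 and 2 and at 82.3 and 79.0 in libraries 1 and 2 labelled BRG1. That is 1.14 ± 0.14 on the log2 scale (adjusted p = 1.08e-05), and the controls differed from each other more than the libraries labelled BRG1 did.

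The other members of the MYST family, to which KAT6B belongs, changed little. KAT5 (TIP60, the enzyme of the NuA4 complex; chromosome 2, 6560544 to 6572461) was the only writer that fell, from 29.4 and 26.5 CPM in controls to 22.0 and 21.2 in the libraries labelled BRG1 (-0.37 ± 0.13, adjusted p = 0.0309). That call was lost when library 1 or 2 labelled BRG1 was left out (adjusted p = 0.178 and 0.248), with library size alone (0.372) and with the span trend removed (0.264). KAT7 (HBO1, which acetylates histone H3 and H4 and takes part in replication licensing) stood at 37.5 and 38.1 CPM in controls and 42.6 and 39.6 in the libraries labelled BRG1, and KAT8 (MOF, the main writer of acetylated lysine 16 of histone H4) at 22.5 and 20.5 against 18.5 and 18.1. Neither passed, with 95% intervals of -0.12 to 0.36 and -0.52 to 0.060 on the log2 scale.

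EP300 and CREBBP, the broad coactivators p300 and CBP that acetylate lysine 27 of histone H3 at enhancers, overlapped between the groups. EP300 was measured at 165 and 222 CPM in controls 1 and 2 and at 201 and 207 in libraries 1 and 2 labelled BRG1 (0.075 ± 0.13, adjusted p = 0.666). CREBBP gave 124 and 177 CPM in controls and 169 and 172 in the libraries labelled BRG1 (0.18 ± 0.14, adjusted p = 0.305). In both genes control 1 was the lowest library and control 2 the highest, so the value depended on the control kept. Without control 2 the log2 fold changes were 0.29 and 0.44, whereas without control 1 they turned to -0.13 and -0.063. A fit with 1 control takes its spread from the libraries labelled BRG1 alone. Those agreed more closely than the controls, so such a fit passes genes more readily. HAT1, which acetylates newly made histone H4 before it is deposited, stood at 10.3 and 8.91 CPM in controls and at 12.7 and 12.1 in the libraries labelled BRG1. It did not pass (0.37 ± 0.16, adjusted p = 0.0795), and lay at 0.47 without control 1 and at 0.25 without control 2.

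**Figure D2:**
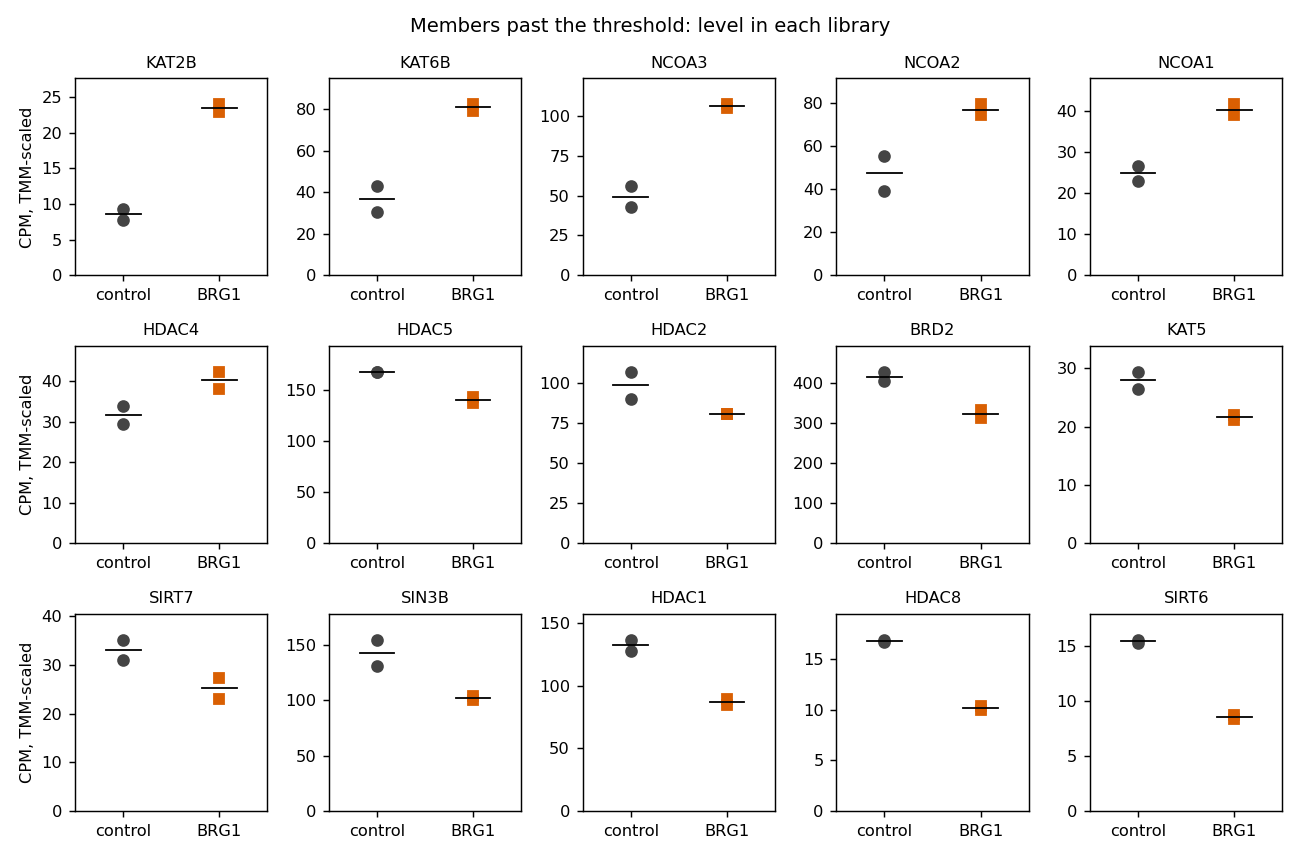
Level (y axis, TMM-scaled CPM, starting at 0) of the 15 acetylation genes past the threshold in each library, with controls as circles, libraries labelled BRG1 as squares and the group mean as a line. The groups do not overlap in any panel; the 2 controls of KAT6B (30.2 and 42.9) and NCOA2 (39.3 and 55.2) lie far apart.

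Of the 4 class I deacetylases, the nuclear enzymes that carry most histone deacetylase activity, 3 fell and 0 rose, where 23.6% of all genes fell, and their median was -0.45 on the log2 scale. HDAC1 (catalytic subunit of the SIN3, NuRD and CoREST complexes; chromosome 6, 88749611 to 88785220) went from 137 and 128 CPM in controls 1 and 2 to 89.4 and 84.8 in libraries 1 and 2 labelled BRG1. It fell by 0.60 on the log2 scale (SE 0.10; adjusted p = 0.000194), and by 0.38 with library size alone (adjusted p = 0.00652). HDAC8 (a class I enzyme that also deacetylates the cohesin subunit SMC3; chromosome X, 58210182 to 58450681) stood at 16.9 and 16.7 CPM in controls and at 9.97 and 10.4 in the libraries labelled BRG1 (-0.72 ± 0.15, adjusted p = 0.00108). The libraries of each group agreed closely in this gene. HDAC2, the close paralog and partner of HDAC1 (chromosome 1, 79867713 to 79901597), gave 107 and 90.0 CPM against 80.3 and 80.1 (-0.29 ± 0.11, adjusted p = 0.0383). The HDAC2 call rested on control 1, since without it the value was -0.17 (adjusted p = 0.0542), and it was also lost when library 1 or 2 labelled BRG1 was left out (adjusted p = 0.286 and 0.282) and with library size alone (-0.067, adjusted p = 0.632). HDAC3, a deacetylase that works within nuclear receptor corepressor complexes, stood at 76.9 and 71.0 CPM in controls and 66.5 and 66.9 in the libraries labelled BRG1. It did not pass (-0.15 ± 0.10, adjusted p = 0.252), and lay at -0.22 without control 2 and at 0.076 with library size alone.

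Class IIa deacetylases, which shuttle between nucleus and cytoplasm and bind MEF2 factors, split. HDAC4 (chromosome 15, 138378237 to 138657266) stood at 29.3 and 33.9 CPM in controls 1 and 2 and at 38.1 and 42.3 in libraries 1 and 2 labelled BRG1, and it was the only eraser that rose (0.35 ± 0.12, adjusted p = 0.032). HDAC5 (chromosome 12, 19077910 to 19119463) gave 168 and 168 CPM in controls and 137 and 143 in the libraries labelled BRG1, and fell (-0.26 ± 0.10, adjusted p = 0.0418). Both calls were weak. That of HDAC4 was lost without control 1 (0.24, adjusted p = 0.0576), when library 1 or 2 labelled BRG1 was left out (adjusted p = 0.115 and 0.357), in DESeq2 (adjusted p = 0.0506) and with the span trend removed (0.062, adjusted p = 0.686); that of HDAC5 was lost when library 1 or 2 labelled BRG1 was left out (adjusted p = 0.444 and 0.307), with a filter of 1 CPM in 2 libraries (adjusted p = 0.0545) and with library size alone (-0.036, adjusted p = 0.789). HDAC7, a class IIa enzyme known from endothelial cells and thymocytes, stood at 156 and 185 CPM in controls and 174 and 196 in the libraries labelled BRG1, so that the groups overlapped. It did not pass (0.12 ± 0.11), and lay at 0.23 without control 2 and at -0.0026 without control 1. HDAC9 had the fewest reads of the set, 93 and 107 in controls and 183 and 179 in the libraries labelled BRG1, or 2.66 and 3.33 CPM against 4.67 and 4.78. Its groups did not overlap, yet the fold change of 0.66 ± 0.26 did not pass (adjusted p = 0.0532, 95% interval 0.10 to 1.22). Without control 2 it was 0.81, and with the span trend removed 0.30.

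The class IIb enzymes did not pass. HDAC6, the cytoplasmic deacetylase of tubulin, stood at 17.2 and 19.3 CPM in controls and 19.9 and 23.6 in the libraries labelled BRG1 (0.25 ± 0.15, adjusted p = 0.173), and HDAC10, a polyamine deacetylase, at 23.3 and 29.6 against 34.1 and 29.3 (0.26 ± 0.14, adjusted p = 0.156). Without control 2 their values were 0.32 and 0.43. HDAC6 lay at 0.12 without library 2 labelled BRG1, and HDAC10 at 0.090 without control 1. HDAC11, the single class IV enzyme, gave 5.11 and 3.77 CPM in controls and 7.09 and 5.90 in the libraries labelled BRG1. It did not pass (0.55 ± 0.23, adjusted p = 0.0708), and lay at 0.78 without control 1 and at 0.33 without control 2.

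Of 6 sirtuins 2 fell and 0 rose, where 23.6% of all genes fell and 21.0% rose. The 2 that fell are nuclear enzymes, but SIRT1, also mainly nuclear, did not pass and lay at 0.38. SIRT6 (which removes acetyl groups from histone H3 at telomeres and promoters; chromosome 2, 74568539 to 74577774) had the largest fall of the set. It stood at 15.2 and 15.5 CPM in controls 1 and 2 and at 8.72 and 8.31 in libraries 1 and 2 labelled BRG1, or 1.81-fold lower (-0.85 ± 0.16, adjusted p = 0.000411). SIRT7 (a nucleolar enzyme that acts on lysine 18 of histone H3; chromosome 12, 1078155 to 1084112) gave 31.1 and 35.2 CPM in controls and 23.1 and 27.4 in the libraries labelled BRG1 (-0.39 ± 0.13, adjusted p = 0.0272). That call was lost when library 1 or 2 labelled BRG1 was left out (adjusted p = 0.374 and 0.0558), with library size alone (-0.17, adjusted p = 0.323) and with the span trend removed (-0.11, adjusted p = 0.521), while SIRT6 passed in each alternative run.

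The other sirtuins did not pass. SIRT1, a mainly nuclear enzyme with histones, p53 and other factors as substrates, stood at 18.3 and 14.7 CPM in controls and 22.4 and 20.5 in the libraries labelled BRG1 (0.38 ± 0.15, adjusted p = 0.054). It passed as higher in 6 of 12 alternatives, among them limma-voom, library size alone and the span trend removed. SIRT1 lay at 0.54 without control 1 and at 0.21 without control 2. SIRT2, found mostly in the cytoplasm, gave 63.3 and 59.1 against 52.8 and 54.4 (-0.19 ± 0.10, adjusted p = 0.15). It lay at -0.26 without control 2 and at 0.034 with library size alone. Of the mitochondrial members, SIRT3 gave 11.06 and 10.9 against 7.09 and 9.03 (-0.45 ± 0.18, adjusted p = 0.0537) and SIRT5, which removes succinyl and malonyl groups, 9.28 and 10.2 against 7.62 and 10.8 (-0.076 ± 0.19, adjusted p = 0.779). SIRT3 passed in 6 of the 12 alternatives run at the same threshold, some of them with a library left out. Its value was -0.64 without library 2 labelled BRG1 and -0.22 with library size alone. The groups of SIRT5 overlapped, with both the lowest and the highest library among those labelled BRG1.

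Of the bromodomain readers 1 of 6 passed, as lower, where 44.6% of all genes passed and 23.6% fell. Their median was -0.040. BRD2, a BET protein that binds acetylated histone H4 (chromosome 7, 25096579 to 25162591), was the one reader that fell, from 405 and 429 CPM in controls 1 and 2 to 313 and 333 in libraries 1 and 2 labelled BRG1 (-0.37 ± 0.10, adjusted p = 0.00919). The call was lost when library 1 or 2 labelled BRG1 was left out (adjusted p = 0.311 and 0.171) and with library size alone (-0.14, adjusted p = 0.269). Its BET paralog BRD3 stood at 49.5 and 62.1 CPM in controls and 72.9 and 63.4 in the libraries labelled BRG1. BRD3 did not pass (0.29 ± 0.12, adjusted p = 0.0706), and lay at 0.44 without control 2 and at 0.13 without control 1. BRD8, a subunit of the NuA4 complex with KAT5, gave 51.5 and 51.6 CPM against 52.8 and 56.3 (0.081 ± 0.10). The 3 scaffolds of the KAT6 and KAT7 complexes did not pass either. BRD1 gave 54.0 and 59.3 CPM in controls and 58.0 and 53.5 in the libraries labelled BRG1, BRPF1 29.2 and 36.6 against 28.9 and 32.7, and BRPF3 66.6 and 72.8 against 64.9 and 69.0. In all 3 the groups overlapped, and the 95% intervals were -0.25 to 0.21, -0.39 to 0.20 and -0.28 to 0.16 on the log2 scale.

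Of the scaffolds of deacetylase complexes, SIN3B (chromosome 2, 60750227 to 60791660) fell from 131 and 155 CPM in controls 1 and 2 to 104 and 101 in libraries 1 and 2 labelled BRG1 (-0.48 ± 0.11, adjusted p = 0.00191). That call was lost with library size alone (-0.26, adjusted p = 0.0644) and without library 2 labelled BRG1 (-0.46, adjusted p = 0.0742). SIN3A, its paralog and the other platform for HDAC1 and HDAC2, stood at 57.4 and 67.6 CPM in controls and at 75.3 and 71.8 in the libraries labelled BRG1. SIN3A did not pass (0.24 ± 0.11, adjusted p = 0.0961), and lay at 0.34 without control 2 and at 0.11 with the span trend removed. RCOR1, the CoREST scaffold that joins HDAC1 and HDAC2 to the demethylase KDM1A, gave 81.1 and 90.9 CPM against 71.8 and 74.7 (-0.23 ± 0.10, adjusted p = 0.086). It was called lower with the span trend removed (-0.46, adjusted p = 0.000927), and lay at -0.32 without control 1 and at -0.0054 with library size alone.

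Related genes that serve the same complexes or share a fold were set side by side, 19 pairs in all. The ratio of the 2 genes of a pair within a library does not depend on how libraries are scaled, and it is given as a description with no test, since an exact permutation test of 2 libraries against 2 cannot reach p = 0.05. Reads of close paralogs that align to more than 1 place are listed apart from the gene counts, so a ratio can miss part of either gene. In 14 of the 19 pairs the ratio did not overlap between the groups. The 73.2% of single genes whose levels did not overlap is another measure, and no share was computed for pairs of other genes. Several genes enter more than 1 pair, so the pairs are not separate units. In 5 pairs both genes passed in the same direction, and in 1, HDAC4 and HDAC5, they passed in opposite directions.

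The largest shift was that of KAT2A to KAT2B. The log2 ratio was 1.53 and 1.32 in controls 1 and 2 and 0.23 and 0.0016 in libraries 1 and 2 labelled BRG1, and KAT2A gave 72.8% of the reads of the pair in controls, against 52.1% in the other group. HDAC5 to HDAC9 shifted next most, by -0.93, from 5.98 and 5.66 to 4.88 and 4.90, where HDAC9 has the fewest reads of the set. SIN3A to SIN3B moved the other way, from -1.19 in both controls to -0.46 and -0.49, with SIN3A at 30.4% and 41.9% of the reads of the pair. The libraries of each group agreed closely in that ratio (SD 0.0015 for controls and 0.016 for the other group, n = 2), although each gene alone differed between the controls.

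HDAC1 to HDAC2 went from 0.36 and 0.51 to 0.15 and 0.082, HDAC4 to HDAC5 from -2.52 and -2.31 to -1.85 and -1.76, and BRD2 to BRD3 from 3.03 and 2.79 to 2.10 and 2.39. SIRT6 to SIRT7 went from -1.03 and -1.18 to -1.41 and -1.72. Within the p160 family, NCOA2 to NCOA3 went from -0.13 and -0.020 to -0.53 and -0.40, while NCOA1 to NCOA2 overlapped between the groups (-0.78 and -1.05 against -0.93 and -0.93). EP300 to CREBBP shifted by -0.11, from 0.42 and 0.33 to 0.25 and 0.27, and their levels alone overlapped. NCOA1 to NCOA3 shifted by -0.41, HDAC4 to HDAC7 by 0.23 and HDAC4 to HDAC9 by -0.32, with no overlap. HDAC5 to HDAC7 (-0.39) and HDAC7 to HDAC9 (-0.54) did not overlap either. The 3 pairs among BRD1, BRPF1 and BRPF3 and the pair of HDAC6 and HDAC10 overlapped.

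**Figure D3:**
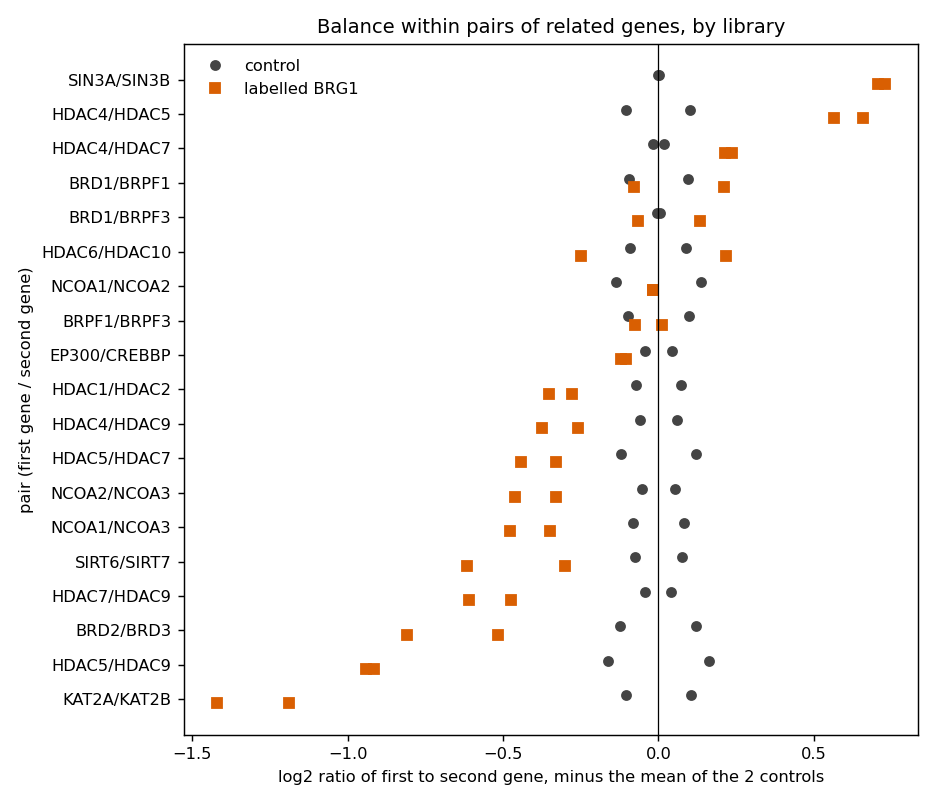
Log2 ratio of the first to the second gene of each of 19 pairs (y axis) in each library, drawn as the difference from the mean of the 2 controls (x axis); circles are controls and squares libraries labelled BRG1. KAT2A to KAT2B shifted by -1.30 and SIN3A to SIN3B by 0.72, while pairs among BRD1, BRPF1 and BRPF3 overlapped.

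Fold changes in these libraries moved with gene span, the genomic distance from a gene's first to its last base, and acetylation genes differ widely in span. A RefSeq table of build Sscrofa11.1, matched on symbols, gave spans for 37 of the 38 genes (BRD3 had none), and for 93.2% of the tested genes with a symbol. Across 11318 genes the Spearman correlation of log2 fold change with span was 0.29, and the median log2 fold change went from -0.35 in the shortest decile to 0.29 in the longest. Across the 37 acetylation genes it was 0.43, and across the 12 writers 0.69; genes are not independent replicates and share the same 4 libraries. All 6 acetylation genes that rose span more than 35.5 kb, the median of the set, and of the 9 that fell 4 lie at or below it. The difference between control 2 and control 1 also moved with span (0.25 across all genes and 0.44 across the 37), while that between the libraries labelled BRG1 did so less (-0.040 and 0.15).

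Several members stood away from the median of genes of their own span. KAT2B, NCOA3 and KAT6B lay 1.24, 0.89 and 0.86 above the median of their deciles on the log2 scale, NCOA1 and NCOA2 each 0.41 above, and HDAC4 0.062 above. HDAC8, with 240 kb one of the longest members, lay 1.01 below its decile. HDAC1 lay 0.62 below and SIRT6, at 9.24 kb one of the shortest, 0.57 below. With the span trend removed, 6 of 12 writers rose and 0 fell, 3 of 17 erasers rose and 5 fell (all genes: 21.5% higher and 24.0% lower), and the median of the erasers turned from -0.15 to 0.014. KAT2A and HDAC10, both short, then passed as higher (0.40 and 0.53, adjusted p = 0.0174 and 0.00691). What part span, or the larger share of reads assigned to no feature in the libraries labelled BRG1, has in these values was not tested further.

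**Figure D4:**
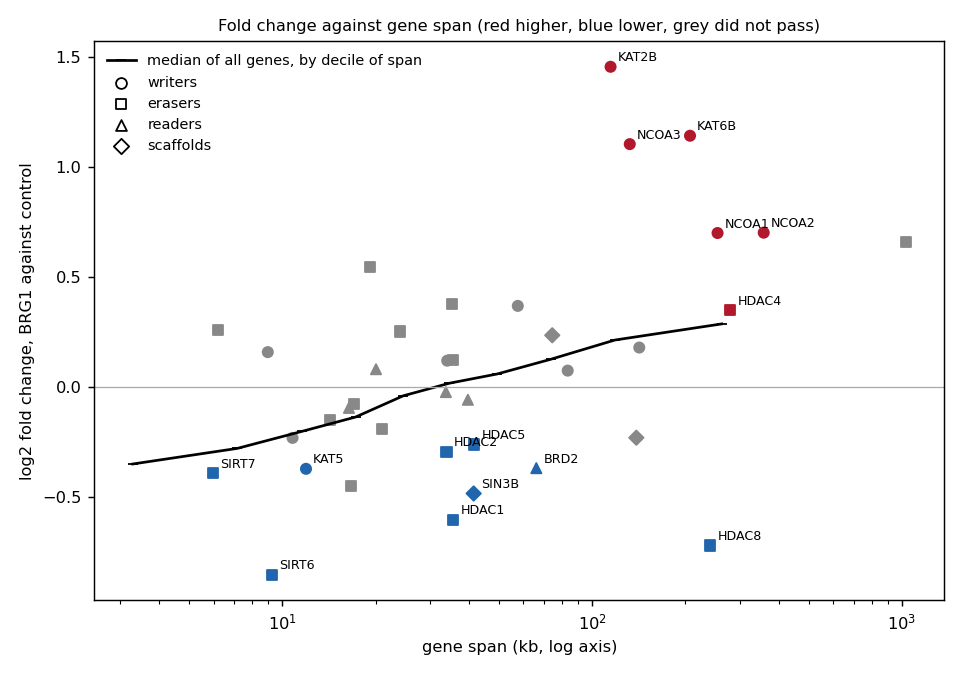
Log2 fold change (y axis) against gene span in kb (x axis, log scale) for 37 acetylation genes, by role and call, with the median of all genes in each decile of span as a line. The line goes from -0.35 to 0.29; KAT2B, KAT6B and NCOA3 lie above it, and HDAC8 at 240 kb lies far below.

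Partner genes of the same complexes were counted from lists named with the set. Of 40 partners of acetyltransferases 6 rose and 6 fell (median 0.00052). JADE1, a scaffold of KAT7 complexes, rose from 21.4 ± 3.37 to 43.7 ± 1.17 CPM (SD, n = 2) and its relative JADE3 from 6.89 ± 0.80 to 11.998 ± 0.27. TAF5L, a structural subunit of the SAGA complex, fell from 80.0 ± 9.20 to 45.1 ± 0.23, and VPS72, a subunit of the NuA4 and SRCAP complexes, from 49.9 ± 4.75 to 33.5 ± 0.91. Adjusted p was 1.87e-05 to 0.00169 for these 4. Of 35 partners of deacetylases 7 rose and 6 fell (median 0.044). TRERF1, a factor of the mitotic deacetylase complex, rose from 7.64 ± 1.22 to 18.7 ± 0.80 CPM. ING1, a histone-binding subunit of SIN3 complexes, fell from 43.4 ± 0.97 to 25.6 ± 1.67, and BRMS1, another SIN3 subunit, from 49.1 ± 4.29 to 30.1 ± 0.039. Adjusted p was 1.49e-05 to 0.000176 for these 3. Both lists held a share of calls below the 44.6% of all genes, and the partners of deacetylases counted 14 rises and 4 falls with library size alone.

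Among 25 other proteins with acetyl-lysine binding or related folds 10 rose and 3 fell (median 0.14), against 21.0% and 23.6% of all genes. With the span trend removed 5 rose and 3 fell, against 21.5% and 24.0%. The smallest adjusted p values, 0.00023 to 0.00208, were those of BRWD1 (29.7 ± 5.12 to 51.0 ± 4.47 CPM), BAZ2B (30.5 ± 6.37 to 52.8 ± 3.05), ATAD2B (9.49 ± 1.78 to 17.8 ± 0.76) and the methyltransferase ASH1L (101 ± 17.7 to 145 ± 2.15). These 4 carry bromodomains and rose, and the median span of the list was 98.4 kb against 29.1 kb for all genes with a span. Of 12 genes that supply acetyl-CoA or NAD+ or handle acetyl groups, 6 fell and 0 rose (median -0.36), where 23.6% of all genes fell and 21.0% rose. ACLY, which makes acetyl-CoA from citrate in cytosol and nucleus, fell from 396 ± 27.5 to 235 ± 4.17 CPM, and NAMPT, the rate-limiting enzyme of NAD+ salvage, from 112 ± 13.8 to 48.9 ± 1.08. ACAT2, a cytosolic thiolase of sterol synthesis, fell from 182 ± 14.8 to 64.5 ± 1.74, and CRAT, carnitine acetyltransferase, from 126 ± 2.57 to 74.8 ± 3.51. For these 4 genes adjusted p was 4.07e-08 to 3.47e-05. With library size alone 5 of the 12 fell and 2 rose, against 14.6% and 33.0% of all genes.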

How the data were processed

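The 4 RNA libraries, 2 controls and 2 labelled BRG1, were grouped and numbered by their titles. The deposited files hold raw counts of reads per Ensembl gene. Per the submitters' processing notes, the tools were STAR, FastQC, Cufflinks, SAMtools, edgeR and DESeq2, and the build Sscrofa11.1. The read counter, its strand setting and the annotation release are not stated, so genes that overlap or lie antisense may share reads. Rows that name no gene stayed out of the library sizes. In R 4.3.3, edgeR 4.0.16 filtered genes (filterByExpr, minimum count 10, total 15), scaled by TMM (factors 0.918 to 1.08) and tested the group by quasi-likelihood F test with Benjamini-Hochberg adjustment. The SE is the log2 fold change over the square root of F. Replicates differed by more than counting noise (chi-square per degree of freedom 38.3 and 5.33). The test was checked on simulated data. Alternatives were DESeq2 1.42.0, limma 3.58.1 (voom), other scalings and filters, a stricter threshold, a trend of log2 CPM with gene span fitted and removed per library, a replicate block and each library left out. Members and lists were chosen with earlier results of these data known. Every member is named, and of each partner list the 4 genes with the smallest adjusted p. The values of 2 genes of the lists are not reported here. No sequences were used here.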

Additional observations from a re-analysis of the deposited data

How the results depend on the processing

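Over 12 alternatives at the same threshold, 8 of the 15 acetylation genes past it passed in the same direction each time: KAT2B, KAT6B, NCOA1, NCOA2, NCOA3, HDAC1, HDAC8 and SIRT6. None of the 15 passed in the opposite direction under any of the 12. Leaving out 1 library leaves a group with a lone library, which is assumed to vary like the other group. The libraries labelled BRG1 agreed more closely than the controls, and fits without a control called more genes, in the set and among all genes.

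With library size alone the set had 19 rises and 3 falls (median 0.30), writers 9 and 0 (0.50), erasers 7 and 3 (0.076), readers 2 and 0 (0.18), scaffolds 1 and 0 (-0.0054), acetyltransferase partners 17 and 2, deacetylase partners 14 rises, other readers 0 falls, acetyl-CoA genes 2 rises, and all genes 4820 and 2139. At an adjusted p of 0.01 the set had 5 falls, writers 0, erasers 0 rises and 3 falls, and other readers 6 and 1. All genes then had 2056 rises and 2611 falls. With the span trend removed writers had 0 falls, erasers 3 rises (median 0.014), scaffolds 2 falls (-0.46), acetyltransferase partners 10 rises, other readers 5 and acetyl-CoA genes 2. Of 11318 genes with a span 2431 then rose and 2720 fell. With the filter of 1 CPM in 2 libraries erasers had 3 rises, acetyl-CoA genes 1, and other readers 1 fall, where all genes had 3082 rises and 3274 falls. Erasers had 0 rises in DESeq2 and 2 in limma-voom, where all genes had 2739 and 3134.

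With the replicate number as a block the set had 10 rises in place of 6, erasers 4 in place of 1 and readers 1 in place of 0. All genes had 3189 rises in place of 3068. HDAC5 no longer passed (adjusted p = 0.0571), and HDAC9, HDAC11, SIRT1, SIRT3 and BRD3 did. Deviations of the libraries with number 1 in the 2 groups correlated at 0.0065 across genes, and no label says that a number pairs libraries.

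With each library left out in turn, rises and falls ran from 1908 to 3673 and from 2177 to 4321 for all genes, from 5 to 14 and from 4 to 12 for the set (median -0.080 to 0.090), from 0 to 2 falls for writers (median 0.26 to 0.37), from 0 to 5 and from 3 to 9 for erasers (median -0.22 to -0.14), from 0 to 1 and from 0 to 1 for readers, from 0 to 1 and from 0 to 2 for scaffolds, from 3 to 10 and from 2 to 10 for acetyltransferase partners, from 4 to 10 rises for deacetylase partners, from 5 to 12 and from 0 to 6 for other readers, and from 0 to 1 rises for acetyl-CoA genes. The largest counts of the set (14 rises and 12 falls) came without control 2, and the lowest count of falls (4) without library 1 or 2 labelled BRG1.

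Signs turned only in genes that had not passed in the main fit. EP300 was called in each fit that left out a control, lower without control 1 and higher without control 2. With library size alone HDAC3 was at 0.076, SIRT2 at 0.034, SIRT5 at 0.15, BRD1 at 0.20, BRPF1 at 0.13 and BRPF3 at 0.17. With the span trend removed EP300 was at -0.067, CREBBP at -0.047, HDAC3 at 0.014, SIRT5 at 0.047 and BRPF1 at 0.035. With libraries left out EP300 ran from -0.13 to 0.29, CREBBP from -0.063 to 0.44, HDAC7 from -0.0026 to 0.23, SIRT5 from -0.36 to 0.16, BRD1 from -0.097 to 0.031 and BRPF1 from -0.26 to 0.060. The cause was not tested. HDAC9 and HDAC11 had 93 to 278 reads per library, and what more depth would change was not tested.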

Other observations

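The controls differed from each other more than the libraries labelled BRG1 did. Over the 38 acetylation genes the median absolute log2 difference was 0.19 between controls 1 and 2 and 0.081 between libraries 1 and 2 labelled BRG1, against 0.20 and 0.11 over all genes tested. In EP300 and CREBBP the controls stood at 165 and 222 CPM and at 124 and 177 CPM, and both libraries labelled BRG1 lay between them.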
